A study of Homo sapiens with 2 samples.

Results

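The loci of RUNX1, RUNX2, RUNX3 and CBFB were examined in the chromatin accessibility map of CAMA-1, an estrogen receptor-positive breast cancer cell line of luminal epithelial origin. The 4 genes were chosen by name from the 20033 protein-coding genes of the GENCODE annotation (human genome build hg38), and a peak belonged to a locus when it overlapped the gene body or the 50 kb on either side. Accessibility was measured by ATAC-seq, in which the Tn5 transposase cuts and tags open DNA, in 2 biological replicates of 50000 untreated cells each, with peaks called separately. The loci held 220 of 245736 peaks in replicate 1 and 229 of 259745 peaks in replicate 2, and overlapping peaks of both replicates formed 195 of the 215195 regions found in both lists. All cells belonged to a single condition, so no groups could be compared and no p-value was computed. An exact sign-flip test over 2 pairs cannot give a p below 0.5.

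RUNX proteins are transcription factors that bind the same DNA word through their Runt domain. CBFB encodes their common partner, core-binding factor beta, which does not bind DNA itself but strengthens the binding of the RUNX subunit. RUNX1 is known for the formation of blood stem cells, RUNX2 for bone formation, and RUNX3 for T cells and sensory neurons, and both RUNX1 and CBFB are recurrently mutated in breast cancer. Each RUNX gene is transcribed from a distal promoter, P1, and a proximal promoter, P2, which give proteins with different N-terminal ends. CBFB has no such pair.

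P1 and P2 differed in base composition, and the DNA just upstream of each start site is shown for this reason. Each stretch is 250 bases of hg38, read 5′ to 3′ on the strand of the gene, with matches of the RUNX word TGTGGT on either strand in capitals (ACCACA when the match is on the other strand). The stretches of RUNX2 P1, RUNX2 P2 and CBFB were moved upstream by 160, 449 and 33 bp. They were moved so that they overlap no exon of an annotated coding transcript nearby.
RUNX1 P1, chr21:35049345-35049594, minus strand: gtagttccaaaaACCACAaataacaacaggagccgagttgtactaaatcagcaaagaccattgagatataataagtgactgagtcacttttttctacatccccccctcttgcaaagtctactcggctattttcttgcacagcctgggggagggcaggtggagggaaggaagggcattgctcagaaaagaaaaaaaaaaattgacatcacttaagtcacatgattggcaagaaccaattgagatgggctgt
RUNX1 P2, chr21:34888691-34888940, minus strand: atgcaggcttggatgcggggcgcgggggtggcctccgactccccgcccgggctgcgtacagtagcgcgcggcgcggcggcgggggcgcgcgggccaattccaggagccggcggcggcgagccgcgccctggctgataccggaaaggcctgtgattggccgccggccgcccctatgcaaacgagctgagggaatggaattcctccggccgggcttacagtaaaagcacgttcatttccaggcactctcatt
RUNX2 P1, chr6:45327907-45328156, plus strand: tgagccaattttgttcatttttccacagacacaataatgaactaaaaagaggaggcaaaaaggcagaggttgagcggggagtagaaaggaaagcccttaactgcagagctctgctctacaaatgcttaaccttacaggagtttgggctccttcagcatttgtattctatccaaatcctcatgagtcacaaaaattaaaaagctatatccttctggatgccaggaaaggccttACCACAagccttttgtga
RUNX2 P2, chr6:45421786-45422035, plus strand: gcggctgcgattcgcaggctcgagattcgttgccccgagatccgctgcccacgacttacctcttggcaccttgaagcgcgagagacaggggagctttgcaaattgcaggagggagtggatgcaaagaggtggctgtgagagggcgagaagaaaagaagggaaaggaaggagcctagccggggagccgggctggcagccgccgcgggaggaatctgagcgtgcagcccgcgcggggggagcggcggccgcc
RUNX3 P1, chr1:24965011-24965260, minus strand: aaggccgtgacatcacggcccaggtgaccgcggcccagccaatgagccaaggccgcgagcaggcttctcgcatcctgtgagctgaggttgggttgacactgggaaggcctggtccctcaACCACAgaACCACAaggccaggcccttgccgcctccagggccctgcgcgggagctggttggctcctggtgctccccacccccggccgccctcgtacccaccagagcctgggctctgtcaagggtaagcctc
RUNX3 P2, chr1:24930277-24930526, minus strand: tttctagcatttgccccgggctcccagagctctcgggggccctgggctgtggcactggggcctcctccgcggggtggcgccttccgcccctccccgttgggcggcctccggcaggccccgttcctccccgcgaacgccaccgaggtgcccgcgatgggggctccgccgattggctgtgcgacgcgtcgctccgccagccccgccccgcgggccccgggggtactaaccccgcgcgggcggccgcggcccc
CBFB promoter, chr16:67028866-67029115, plus strand: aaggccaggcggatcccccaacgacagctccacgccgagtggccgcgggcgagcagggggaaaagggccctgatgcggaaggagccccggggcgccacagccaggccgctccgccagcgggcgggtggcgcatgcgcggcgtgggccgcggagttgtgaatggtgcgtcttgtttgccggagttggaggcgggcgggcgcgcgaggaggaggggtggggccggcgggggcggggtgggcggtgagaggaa

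In the 300 bases from 250 before to 50 after the start site, GC content was 41.3% at RUNX1 P1 and 71.7% at RUNX1 P2. It was 42.3% at RUNX2 P1 and 63.7% at RUNX2 P2, so that P2 was the GC-richer promoter of both genes. RUNX3 differed less, with 66.3% at P1 and 76.0% at P2, and the CBFB promoter reached 79.7%. The ratio of observed to expected CpG followed the same order within each gene, at 0.159 and 1.04 for P1 and P2 of RUNX1, 0.149 and 0.830 for RUNX2, and 0.460 and 0.879 for RUNX3. CBFB had a ratio of 1.10, and the median of 35116 RefSeq promoters of hg38 was 0.579. The RUNX word was found in 3 of the 7 promoters, which were the P1 promoters, and in 13.1% of all RefSeq promoters of the same length. RUNX1 P1 held 1 match, which starts 238 bases before the start site. RUNX2 P1 held 4, which start at −178, −74, 29 and 37, and RUNX3 P1 held 2, at −131 and −123. Only 1.31% of all promoters held 2 or more matches. A match describes the letters of the window and is not evidence of binding.

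Promoter accessibility was highest at RUNX1 P2, lower at CBFB and RUNX2 P2, weak at RUNX1 P1, and below the calling threshold at RUNX2 P1 and at both promoters of RUNX3. Values are fold enrichments, the ratio of the reads stacked at the summit of a peak to a genome-wide background, with 1 added to both. Each promoter was given the strongest peak within 1 kb of its start sites. The number of reads stacked at the summit is called the height, and its 95% Poisson interval covers counting error only. A TSS peak within 1 kb of any annotated start site was called in both replicates for 3 of the 4 members, RUNX3 being the exception, and for 79.3% of all protein-coding genes.

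RUNX1 P2 (chr21:34888690, minus strand) was covered by a broad peak with a fold enrichment of 61.7 in replicate 1 and 70.5 in replicate 2. The peak was 2602 and 2641 bp wide, and its heights were 267 (95% interval 236 to 301) and 318 (284 to 355). Coding TSS peaks, here and below, are the strongest within 1 kb of any start site of each protein-coding gene. They cover the 15890 genes with such a peak in both replicates, so single promoters were ranked against the strongest peak of each gene. The RUNX1 P2 peak was stronger than 59.5% and 65.2% of these TSS peaks, whose medians were 51.8 and 53.3. RUNX1 P2 was thus the only member promoter above these medians.

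RUNX1 P1, located 160.654 kb upstream of P2 (chr21:35049298-35049344), had only a narrow peak with fold enrichments of 7.59 and 7.08. Its heights were 32 (21.9 to 45.2) and 31 (21.063 to 44.002), and it lay 773 and 752 bp downstream of the nearest P1 start site without touching it. The ratio of P2 to P1 was 8.12 in replicate 1 and 9.97 in replicate 2, with a mean of 9.04 ± 1.31 (SD, n = 2). The Poisson intervals of the P1 and P2 heights did not overlap in either replicate. A much stronger peak lay further upstream, 2.16 kb before P1 (chr21:35051128-35051880), with fold enrichments of 67.4 and 76.3. When peaks up to 3 kb away were accepted, this peak stood for P1, and the mean ratio fell below 1, to 0.920.

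RUNX2 P1 (chr6:45328317-45328727, plus strand) had no peak within 3 kb in either replicate, and the nearest was 17770 bp away, upstream, with fold enrichments of 8.28 and 7.74. RUNX2 P2, 94.168 kb downstream of P1 (chr6:45422485-45422577), was covered by peaks of 20.7 and 21.9, with heights of 89 (71.5 to 110) and 98 (79.6 to 119). These exceeded only 18.6% and 18.9% of coding TSS peaks. The strongest region of the RUNX2 locus was 2.7 kb upstream of P2, in intron 2 of the P1 transcript (chr6:45419420-45420152), with 115 and 133. The P2 start site itself therefore had a far weaker peak than its upstream neighbor in both replicates.

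RUNX3 had no peak within 1 kb of P1 (chr1:24965010, minus strand) or P2 (chr1:24930276). The nearest peak to P1 was weak, at 6.90 and 6.63, and lay 1196 and 1201 bp away, downstream. The nearest peak to P2 lay 1955 and 1926 bp upstream and reached 26.5 and 29.4, with heights of 114 (94.0 to 137) and 132 (110 to 157). Both start sites of RUNX3 were thus flanked by called peaks but not covered by them. The lowest height called anywhere was 11 in either replicate, so absence here means below the threshold of the peak caller. RUNX3 P2 combined a high CpG ratio with the lack of a peak, unlike RUNX1 P2, RUNX2 P2 and CBFB.

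The CBFB promoter (chr16:67029149, plus strand) was covered by peaks of 25.3 and 33.8, with heights of 109 (89.5 to 131) and 152 (129 to 178). They exceeded 22.8% and 30.4% of coding TSS peaks. CBFB was above RUNX2 P2 in both replicates, but the height intervals of the 2 promoters overlapped in replicate 1 and not in replicate 2. These neighbors in the order, at 29.6 ± 6.03 for CBFB and 21.3 ± 0.837 for RUNX2 P2 (SD, n = 2), were closer to each other than either was to RUNX1 P2.

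**Figure D1:**
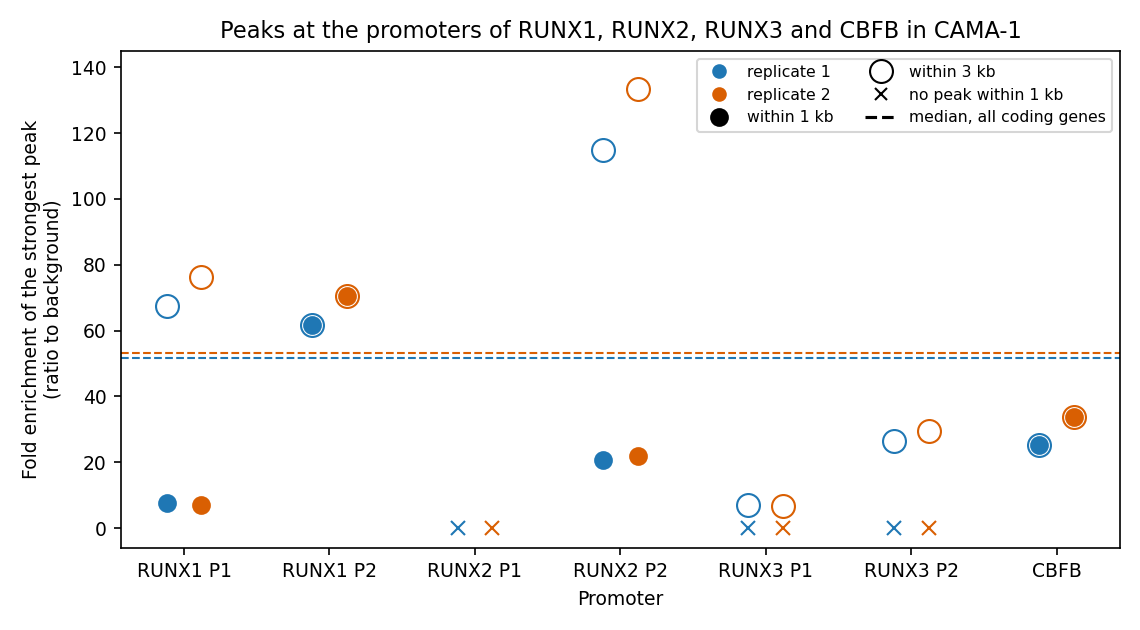
Fold enrichment (ratio to background) of the strongest peak within 1 kb (filled circles) and within 3 kb (open circles) of each member promoter, in replicates 1 and 2, with crosses placed at 0 for promoters without a peak within 1 kb and dashed lines for the median TSS peak of all coding genes in each replicate (51.8 and 53.3). RUNX1 P2 lies above the medians with 61.7 and 70.5. RUNX1 P1 (7.59 and 7.08) and RUNX2 P2 (20.7 and 21.9) exceed the medians only when peaks up to 3 kb away are counted. The medians themselves count peaks within 1 kb, and no median was computed for 3 kb.

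Other peaks at the loci were examined next. Of the member peaks, 199 of 220 in replicate 1 (90.5%) were found again in replicate 2, against 90.2% of all peaks. In the other direction 196 of 229 (85.6%) were found again, against 84.7%. The shares at the loci were thus close to those of the whole lists. The peaks seen in a single replicate, 21 in replicate 1 and 33 in replicate 2, were weak, with fold enrichments from 3.22 to 6.41 and heights from 13 to 28. Among the 195 regions called in both replicates, the fold enrichment in replicate 2 was between 0.618 and 1.92 times that in replicate 1, and 186 regions (95.4%) differed by no more than 1.5-fold, against 94.3% of all regions. It was higher in replicate 2 in 65.6% of member regions and in 55.6% of all regions. The median fold enrichment, averaged over replicates, was 9.33 at the loci and 9.84 over all regions. A mean of 30 or more was reached by 27 member regions (13.8%) and by 18.2% of all regions. The 95% Wilson interval of the member share (9.69 to 19.4%) treats regions as independent, although many are neighbors at the same locus. The difference was not tested.

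The loci differed in how densely regions were placed. RUNX1 held 102 regions, or 7.75 per 100 kb, and ranked above 34.0% of protein-coding genes. RUNX2 held 46 (10.5 per 100 kb) and RUNX3 held 17 (10.3 per 100 kb), and they ranked above 46.7% and 45.6% of genes, whose median was 11.4. CBFB held 30, or 17.4 per 100 kb, which ranked above 69.8% of genes. Only 7 of the CBFB regions lay in the gene body, which alone had 9.71 per 100 kb and ranked above 44.2% of gene bodies. The others were in the flanks, where CES4A, PHAF1 and B3GNT9 start. Over all loci, 160 regions were more than 3 kb from any annotated start site of a protein-coding gene and 18 were within 1 kb of one. The same shares over all regions were not computed, so these counts describe the loci alone. The annotated body of RUNX1 (chr21:34787801-36004667) spans 1217 kb because 5 annotated transcripts start upstream of P1, of which only the most distal has an annotated coding sequence, and 65 of the 102 regions lay in the gene body before P1. That most distal start site had no peak within 3 kb. Of the other 4 start sites, 2 had a peak within 1 kb in each replicate. These peaks, of 15.2 and 17.7 (chr21:35065072) and of 15.6 and 11.3 (chr21:35984749), were above the P1 peak. The density and rank of RUNX1 refer to the whole annotated span. A window that stops 50 kb upstream of P1, chosen after seeing the data, held 40 regions, and its rank among genes was not computed.

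Along the RUNX1 locus the stretch from P2 to the gene end was the densest, with 20 regions in 100.889 kb, or 19.8 per 100 kb. The stretch between P1 and P2 held 8 regions in 160.654 kb, or 4.98 per 100 kb, of which 1 was the P2 promoter region itself. The window upstream of P1 held 66 regions at 6.57 per 100 kb. In RUNX2 the stretch between the promoters held 8 regions (8.50 per 100 kb), that from P2 to the gene end held 25 (10.3 per 100 kb), and the 50 kb after the gene held 10 (20 per 100 kb). RUNX3 held 2 regions between its promoters (5.76 per 100 kb) and 4 from P2 to the gene end (13.002 per 100 kb). In each RUNX gene, the stretch after P2 was thus denser than the stretch between the promoters, by a wide margin in RUNX1 and with few regions in RUNX3.

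**Figure D2:**
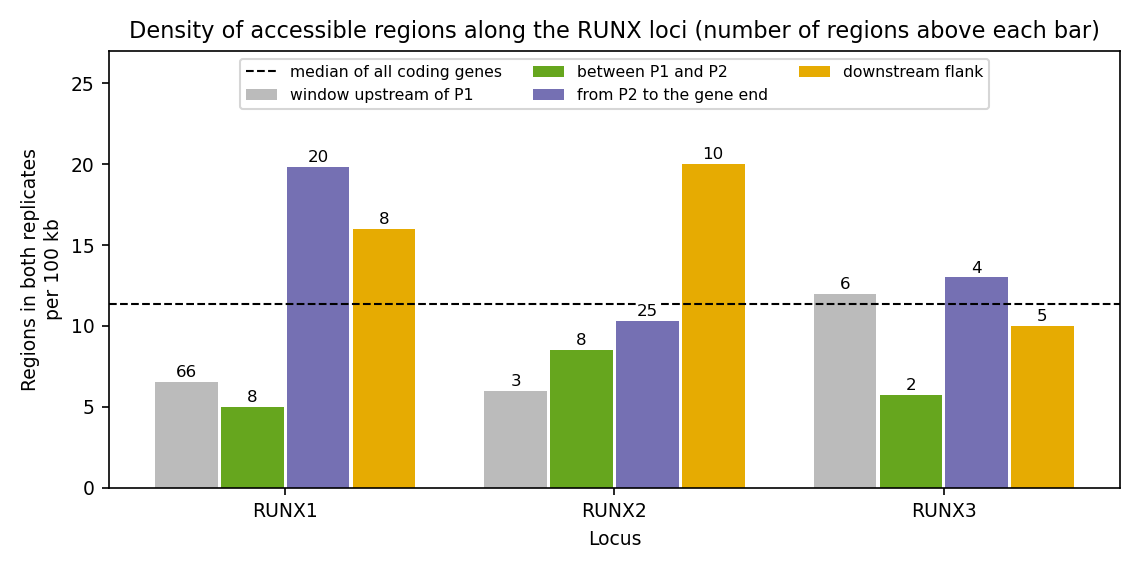
Regions called in both replicates per 100 kb in 4 stretches of the RUNX1, RUNX2 and RUNX3 loci, with the number of regions above each bar and the median of all coding genes (11.4) as a dashed line. The stretch from P2 to the gene end of RUNX1 reaches 19.8 per 100 kb, while the stretch between its promoters has 4.98.

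An intronic enhancer of RUNX1 that is active in blood stem cells is known by its distance of 23 to 24 kb downstream of P1. The window from 22 to 25 kb downstream of P1 (chr21:35024344-35027344), set by distance alone, held 0 peaks in both replicates, and the nearest peaks were 20928 and 20908 bp away. The longest stretch without a region called in both replicates was 101.5 kb at RUNX1, upstream of P1, and 66.4 kb at RUNX2, where it included P1. The longest stretch was 33.6 kb at RUNX3 and 30.7 kb at CBFB.

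The strongest region of all 4 loci was 11.02 kb upstream of the CBFB start site, between CES4A and CBFB (chr16:67017806-67018447). Its fold enrichments were 163 and 161 and its heights 708 and 727, above the CBFB promoter peak in both replicates. Inside RUNX1 the strongest region lay in intron 4, 23.6 kb downstream of P2 (chr21:34863803-34866356), and reached 82.4 and 91.3. It was 2554 bp wide and held 4 matches of the RUNX word and 4 of the forkhead word TGTTTAC, the largest number of RUNX matches in any member region. A second region in intron 5 of RUNX1 (chr21:34845436-34847143) reached 71.6 and 78.9, and a further region, 168.2 kb upstream of P1 (chr21:35217080-35218047), reached 64.2 and 71.4. In RUNX3 the strongest region was in intron 5 (chr1:24909439-24909916) at 88.8 and 78.7, so this gene had a strong internal region without a promoter peak. The next strongest RUNX3 regions were downstream of the gene (chr1:24896375-24896866), at 39.8 and 40.2, and 4.1 kb upstream of P1 (chr1:24968814-24969422), at 33.4 and 36.3. RUNX2 had a further region in intron 5 (chr6:45445444-45446374) at 72.5 and 72.3.

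The middle of these regions is shown for the strongest CBFB, RUNX1 and RUNX2 regions as 160 bases of the plus strand of hg38, with RUNX and forkhead matches on either strand in capitals. The CBFB and RUNX2 stretches are centered on the region, and the RUNX1 stretch is centered on the forkhead match nearest the middle.
CBFB upstream region, chr16:67018047-67018206, plus strand: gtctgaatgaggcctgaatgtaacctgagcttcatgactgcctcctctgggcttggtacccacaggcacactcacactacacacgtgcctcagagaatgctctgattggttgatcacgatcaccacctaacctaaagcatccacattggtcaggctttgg
RUNX1 intron 4 region, chr21:34865370-34865529, plus strand: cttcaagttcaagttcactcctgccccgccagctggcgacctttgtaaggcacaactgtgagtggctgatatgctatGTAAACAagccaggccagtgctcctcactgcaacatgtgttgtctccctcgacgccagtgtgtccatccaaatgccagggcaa
RUNX2 region before P2, chr6:45419706-45419865, plus strand: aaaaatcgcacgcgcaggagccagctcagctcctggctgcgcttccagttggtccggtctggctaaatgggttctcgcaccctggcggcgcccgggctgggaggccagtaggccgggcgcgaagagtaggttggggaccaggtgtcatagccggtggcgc

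The RUNX word was found in 49 of the 195 member regions, or 25.1%, and in 29.3% of all regions called in both replicates. The 95% Wilson interval of the member share (19.6 to 31.7%) again treats regions as independent, and the difference was not tested. Matches were found in 30 of 102 regions at RUNX1, 8 of 46 at RUNX2, 2 of 17 at RUNX3 and 9 of 30 at CBFB. In the 300 bases around the midpoint, where the length of a region has no part, the shares were 19.5% and 20.3%. The AP-1 word TGANTCA was in 23.1% of member regions and 18.9% of all regions, and the forkhead word in 9.74% and 10.3%. The GATA word AGATAA was in 16.9% and 20.1%, and the ETS word CCGGAA in 7.18% and 8.65%. The AP-2 word GCCNNNGGC was in 21.03% and 22.98%. In the 300 bases around the midpoint, AP-1 was in 15.9% and 13.5%, forkhead in 7.18% and 7.37%, and GATA in 13.8% and 14.3%. ETS was in 5.13% and 4.80% of these windows, and AP-2 in 15.4% and 15.6%. These differences were not tested. A pair of estrogen receptor half-sites was found in 1 member region, at RUNX2 (0.513%), and in 0.135% of all regions. The member share rests on that 1 region. The core of the CTCF motif, which was added after the data had been seen, was found in 0 of 195 member regions and in 3.0005% of all regions. Only exact matches of 1 strict pattern were counted, so the 0 does not show that the loci lack CTCF sites. The strongest RUNX3 region holds a stretch that differs from this pattern in its end letter only, and it was not counted.

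**Figure D3:**
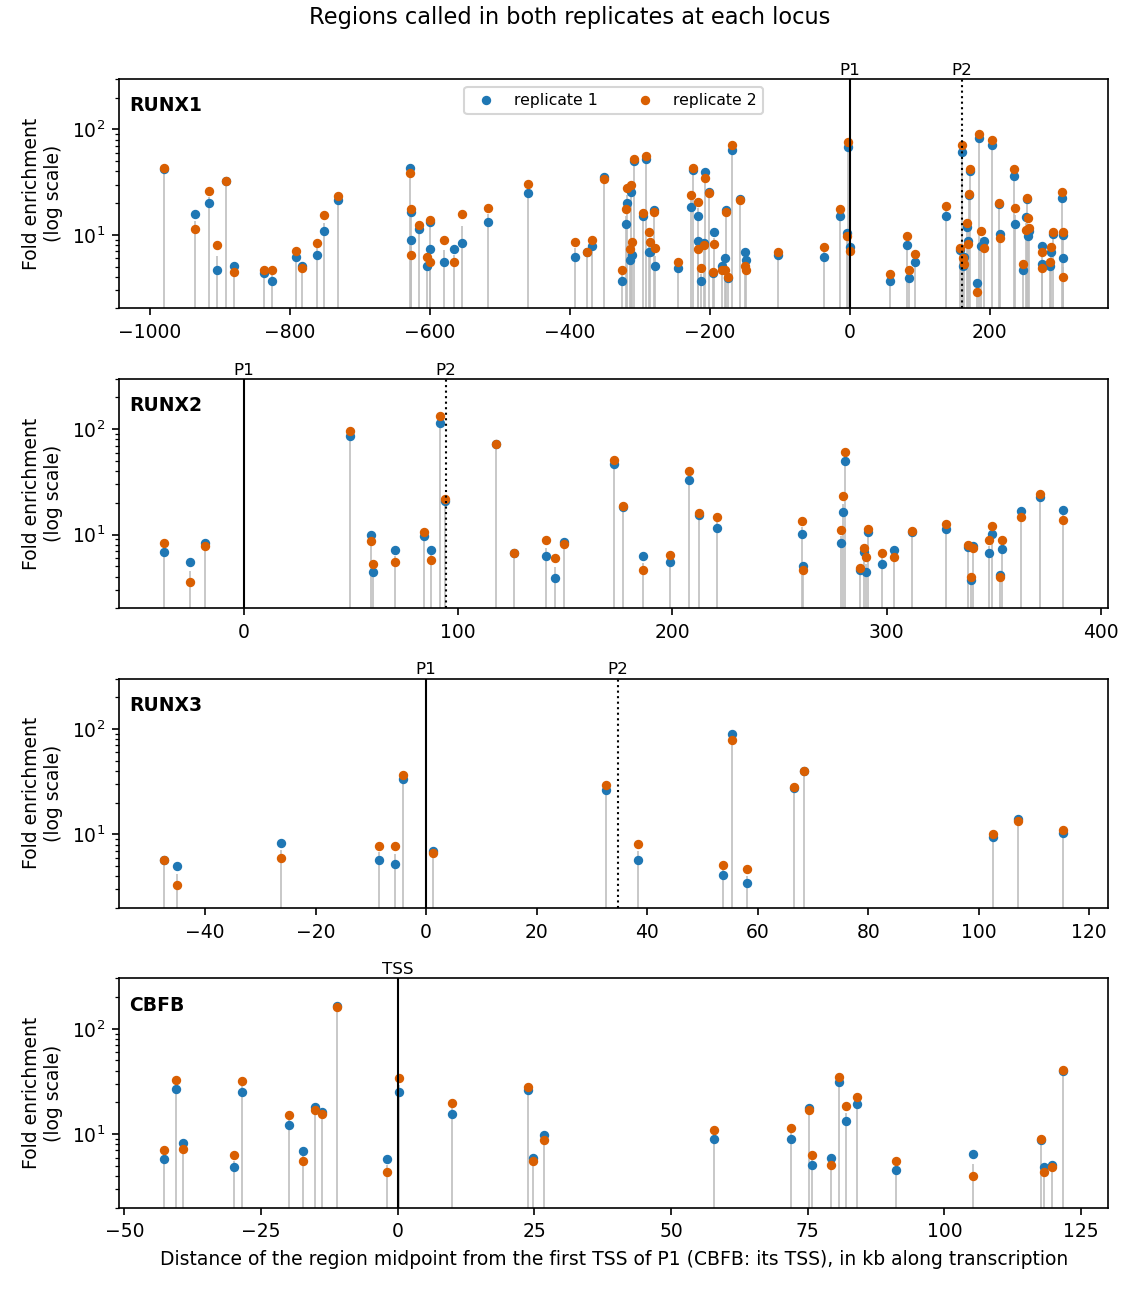
Fold enrichment (log scale) of the regions called in both replicates against the distance of their midpoints from the first start site of P1 or, for CBFB, of its promoter, in kb along the direction of transcription, with blue points for replicate 1, orange points for replicate 2, a solid line for P1 or the CBFB start site and a dotted line for P2. The strongest regions are the one 11.02 kb upstream of CBFB (163 and 161) and the one 2.7 kb before RUNX2 P2 (115 and 133).

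Some regions at the loci belong to the promoters of other genes. SUPT3H, which encodes a subunit of the SAGA acetyltransferase complex, starts on the opposite strand inside RUNX2 and had a TSS peak of 87.0 and 95.5. That peak was stronger than the peak at RUNX2 P2 in both replicates. At CBFB, the neighbors CES4A (26.9 and 32.9) and PHAF1 (31.1 and 34.7) had TSS peaks. The region covering the B3GNT9 start site reached 39.6 and 40.7, and the strongest TSS peak of B3GNT9 (44.6 and 45.8) lay beyond the window. SETD4, upstream of RUNX1, had no TSS peak at the 2 start sites that lie inside the window. Its start sites outside the window included a cluster with a peak of 60.3 and 59.9. The genes most like each member in gene length, region density and TSS peak were FRMD4A, SDK1 and PDE4D for RUNX1, at distances of 0.323 to 0.352 standard deviations over protein-coding genes. They were RAP1GAP2, ATP8B4 and PCBP3 for RUNX2 (0.136 to 0.174), and ABCC12, COG7 and GCN1 for CBFB (0.0728 to 0.106). RUNX3 had no TSS peak and so could not be placed.

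The partners and targets of RUNX proteins were then looked up by the same 1 kb rule, against 79.3% of all protein-coding genes. Every one of 23 cofactor genes had a TSS peak in both replicates, with a median fold enrichment of 62.7 against 52.5 for all coding genes with such a peak. They ranged from TLE2, a Groucho-type corepressor, at 12.0 and 12.4 to SIN3A, a scaffold of histone deacetylase complexes, at 156 and 131. Of 11 targets known from blood cells, 8 had a peak in both replicates, with a median of 8.89. CEBPA, which directs myeloid differentiation, was the highest at 59.4 and 64.8, and the cytokine gene CSF2 was the lowest at 6.44 and 4.64. SPI1, the gene of the myeloid factor PU.1, and CD4 had no peak in either replicate, and GZMB had one in a single replicate. Of 8 targets known from bone, 3 had a peak in both replicates, with a median of 37.2. ALPL, the alkaline phosphatase of bone-forming cells, was the highest at 48.1 and 43.6, and SP7, a factor of osteoblasts, was the lowest at 24.6 and 20.8. SPP1, IBSP, MMP13, COL10A1 and SOST had none. Of 8 targets described in mammary cells, 7 had a peak in both replicates, with a median of 47.8. CCND1, the gene of cyclin D1, reached 257 and 258, AXIN1 of the Wnt pathway was lowest at 26.2 and 33.2, and only CSN2, the gene of beta-casein, had none. The shares were not tested against that of all genes.

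**Figure D4:**
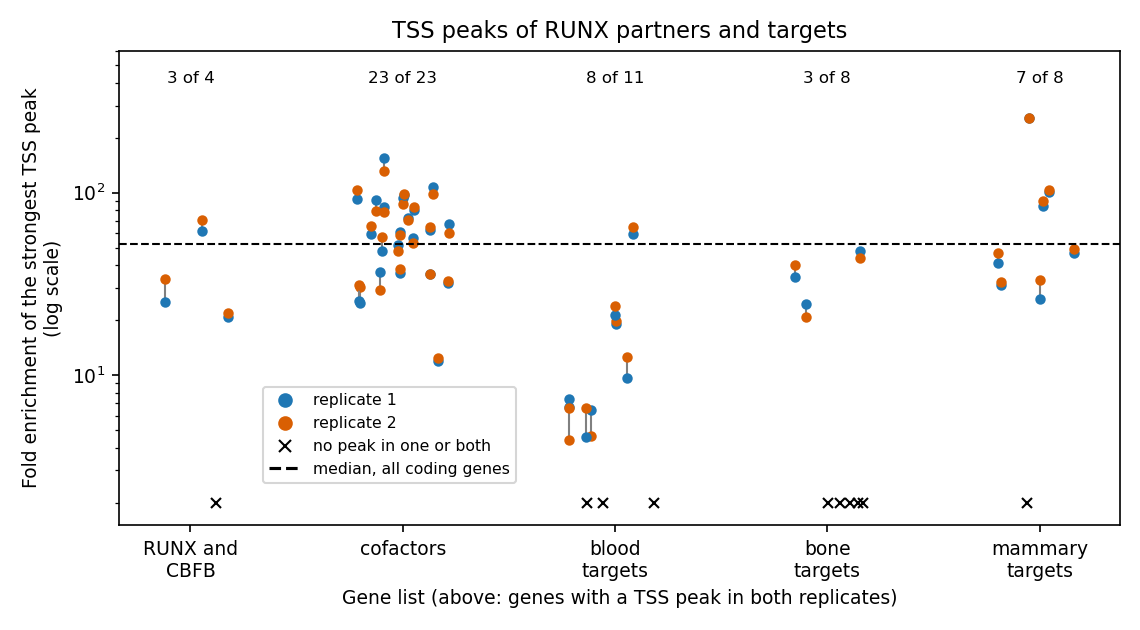
Fold enrichment (log scale) of the strongest peak within 1 kb of any start site for the 4 members and for the RUNX cofactor, blood, bone and mammary target lists, with each gene as a pair of points for replicates 1 and 2 joined by a line, crosses near the bottom for genes without a peak in one or both replicates, and the number of genes with a peak in both replicates above each list. The cofactors have peaks at 23 of 23 genes, and the blood targets with a peak, apart from CEBPA, lie below the dashed median of all coding genes (52.5).

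The accessibility of marker genes was checked against the label of the cells. All 8 luminal breast markers had a TSS peak in both replicates, with a median of 90.8, as did 4 of 4 basal markers with a median of 18.6. Among blood markers, PTPRC, CD3E, MS4A1 and SPI1 had no peak in either replicate, whereas CD14 had one in both. Stromal and endothelial markers had a peak at 3 of 4 genes, with a median of 65.9, above that of all coding genes with a peak (52.5) and that of the basal markers. Bone markers had a peak at 2 of 3 genes, with a median of 29.9. All 3 bone markers are also in the bone target list, SPI1 is in the blood target list, and some luminal markers are in the mammary target list. Their values are the same ones as above and not a second observation. Fold enrichments refer to 1 background per library, of 3.35 and 3.52 stacked reads, and copy number was not analysed here. The median height of all peaks on the chromosome arms of the 4 loci was 34 to 36, against 35 over the genome in both replicates.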

How the data were processed

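CAMA-1 ATAC-seq libraries from 2 biological replicates of 50000 cells were analysed. Per the submitters' processing notes, the authors used Trim Galore 0.6.5, Bowtie2 2.3.5.1 and MACS2 2.2.6 with hg38, and peaks were called in each replicate without pooling. The authors deposited a score and a fold enrichment (ratio to background) for each peak. They also deposited p-values and q-values, both as −log10. Calling settings were not given in the sources used here. The deposited fold enrichments were whole multiples of a step (0.230 and 0.221), from which the background and the peak heights were read. The fold enrichment was taken as the height plus 1 over the background plus 1. Reads per library are not in the peak lists, so depth entered only through these heights, and all intervals cover counting error only.

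Peaks overlapping by at least 1 bp were merged into regions. Start sites of CCDS transcripts (GENCODE release 44) within 1 kb of each other were joined; the most 5′ was P1 and the next P2. Promoter sequences and motif shares used RefSeq promoters and hg38. The genes named are the members, genes with a start site in a member window, the highest and lowest genes of each list and those without a peak, and the 3 genes nearest each member in the standardised log2 of gene length, regions per 100 kb and TSS peak. Genes outside this rule (GZMB, and the marker genes by name) were chosen after their values were seen. Members and lists were chosen with earlier results of these data known. Python 3.11.15, numpy 2.4.6 and scipy 1.17.1 were used, and the functions were tested on simulated data. The result for a marker gene is not reported here.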

Additional observations from a re-analysis of the deposited data

How the results depend on the processing

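Of 102 alternative values for 22 results, 81 stayed within a set range of the first value. That range was the replicate spread, 1.5 times the value for counts, or the Wilson interval for the RUNX word share. A fold enrichment or ratio from a single replicate always lies within the SD of 2 replicates. Those values were therefore counted as unchanged by construction. The same holds for RUNX2 P1 and both RUNX3 promoters, which had no peak within 1 kb. Within 100 bp or at stricter thresholds they could gain no peak. With the 50000 strongest peaks, regions fell to 18 at RUNX1, 6 at RUNX2, 5 at RUNX3 and 7 at CBFB, and 0 replicates had a peak at RUNX1 P1 or RUNX2 P2. The gene body alone held 6 regions at RUNX3 and 7 at CBFB, and a flank of 100 kb held 30 and 63. A window that stops 50 kb upstream of RUNX1 P1, chosen after seeing the data, held 40. Within 100 bp, 0 replicates had a peak at RUNX1 P1 and 4 blood targets had a peak, and at a −log10 q of at least 10, 5 did. Within 3 kb, the fold enrichment was 71.9 at RUNX1 P1 and 124 at RUNX2 P2, 2 replicates had a peak at RUNX3 P1 and at RUNX3 P2, and the P2 to P1 ratio of RUNX1 reversed to 0.920. With −log10 q as strength the ratio was 24.1. The RUNX word was in 19.5% of the 300 bp windows. The cause was not tested, apart from the narrower windows and thresholds, which by construction admit fewer peaks.

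Leaving out each replicate in turn left 112 to 116 peaks at RUNX1, 48 to 61 at RUNX2, 20 to 24 at RUNX3 and 32 to 36 at CBFB. These are peaks of a single replicate, not regions called in both. The same step gave fold enrichments of 7.08 to 7.59 at RUNX1 P1, 61.7 to 70.5 at RUNX1 P2, 20.7 to 21.9 at RUNX2 P2 and 25.3 to 33.8 at CBFB, and a ratio of 8.12 to 9.97. List counts were 23 to 23, 8 to 9, 3 to 3 and 7 to 7. No paired analysis was possible because there was 1 condition only, with no second group. Within 3 kb, RUNX3 had mean fold enrichments of 6.77 at P1 and 27.9 at P2 and a P2 to P1 ratio of 4.13 ± 0.424 (SD, n = 2), with no value within 1 kb to set them against. The RUNX2 P1 fold enrichment, the RUNX2 ratio, the other RUNX3 alternatives and the RUNX1 ratio within 100 bp or from the most 5′ start site, could not be computed for lack of a peak.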
